A study of Rattus norvegicus with 18 samples.

Results

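The nuclear lamina and the LINC complex were followed in RNA-seq of rat bone marrow mesenchymal stem cells (MSCs) through 9 gene names: the lamin genes Lmna, Lmnb1 and Lmnb2, the SUN protein genes Sun1 and Sun2, the nesprin genes Syne1 and Syne2, emerin (Emd) and the lamin B receptor (Lbr). Rows were chosen by gene name, and 6 of the 9 names had a row among the 32623 genes of each deposited table. These 6 members were Lmna, Lmnb1, Lmnb2, Sun1, Sun2 and Emd. The nesprins stood under clone names and were matched by identifier. The row AABR07001382 (ENSRNOG00000018960) carries the NCBI gene number 499010, which RefSeq names Syne1, and AABR07064873 (ENSRNOG00000005323) is a RefSeq synonym of Syne2. Both nesprin rows are described beside the members and are left out of the members' counts. Lbr was not analysed here.

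The lamina is a meshwork of intermediate filaments under the inner nuclear membrane, made of A-type lamins from Lmna and B-type lamins from Lmnb1 and Lmnb2. SUN proteins span the inner membrane, bind the lamina and hold the KASH domain of nesprins, which span the outer membrane and reach actin, microtubules and intermediate filaments. This chain, the linker of nucleoskeleton and cytoskeleton (LINC), is a route by which a pull on the cell surface reaches the nucleus, and A-type lamins are known to set how stiff a nucleus is.

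Marrow MSCs of SD rats aged 2 months, wild type (WT) or miR-337-/- (KO), were grown to passage 3, and all groups were first starved of serum for 8 h. The labels then give 24 h, and the study's methods a shorter time, of continued serum starvation (SSt), of fetal bovine serum (FBS), or of 10% cyclic mechanical stretch (CMS), with 3 libraries in each of the 6 groups of genotype and treatment. Separate animals or cultures behind the libraries of a group are stated neither in the labels nor in the methods, so p-values measure only the spread between these libraries, which may be technical. Each genotype has a table of its own, and a difference in culture or sequencing between the tables cannot be told apart from genotype. The KO rats lack miR-337, a short RNA that represses messenger RNAs paired with its seed. Its 3p arm is shown to identify what the KO cells lack, from RefSeq on build GRCr8, with the seed (bases 2 to 8) in capitals.
rno-miR-337-3p: uUCAGCUCcuauaugaugccuuu

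No read was counted on the Mir337 row (highest count 0 over the 18 libraries, in WT as in KO), so these tables do not check the genotype. Depth was 56.1 to 71.9 M counts per library. Levels are in FPKM, a read count scaled to transcript length and to the size of the library, and can be compared between genes. Lepr, the receptor by which the study describes these MSCs, was at 0 in 13 of 18 libraries and reached 0.07 FPKM at most, while Thy1 (254 to 684 FPKM) and Prrx1 (120.1 to 329 FPKM) were abundant in every library. The macrophage gene Lyz2 measured 1481 to 5102 FPKM, whereas Cd3e of T cells was at 0 in all 18 libraries and Cd79a of B cells in 15. The summed level of 12 division genes was highest in the libraries labelled SSt, with 431 to 436 FPKM in WT and 678 to 736 in KO. It was 266 to 281 in WT FBS, 248 to 257 in WT CMS, 124 to 237 in KO FBS and 108 to 129 in KO CMS. Serum is a common stimulus to division in starved cells. The reason for this order was not tested, and whether the treatment labels are right cannot be settled from these tables. Every direction against SSt given here rests on those labels, and the groups are called by them throughout. Within KO FBS, replicate 1 stood apart from replicates 2 and 3, with Mki67 at 5.06 against 14.8 and 17.1 FPKM and the macrophage gene Adgre1 at 124 against 34.5 and 30.9 FPKM. Members' differences that use KO FBS are therefore also given without replicate 1 where that ends a call, makes one or moves the value by more than 1.5 times. This holds for differences with an adjusted p under 0.5.

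Lmna was the most abundant of the rows in all 6 groups and Sun2 came next. Group means of Lmna ran from 113 to 192 FPKM and those of Sun2 from 61.3 to 83.8 FPKM. Emd followed with 29.5 to 34.9 FPKM, except in KO SSt, where Lmnb1 stood above it without overlap. Sun1 measured 11.7 to 14.8 FPKM, Syne1 2.55 to 5.26 FPKM and Syne2 0.67 to 1.82 FPKM. Lmnb1 ranged from 3.14 to 35.9 FPKM and Lmnb2 from 3.94 to 20.5 FPKM, so their places in the order changed with the group. Neighbours in this order whose libraries overlapped were Sun1 and Lmnb2 in WT SSt, Lmnb1 and Lmnb2 in KO FBS, and Lmnb2, Lmnb1 and Syne1 in KO CMS. The highest group mean was 11.4 times the lowest for Lmnb1, 5.19 times for Lmnb2, 2.74 times for Syne2, 2.06 times for Syne1 and 1.70 times for Lmna. For Sun2, Sun1 and Emd it was 1.37, 1.27 and 1.18 times.

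**Figure D1:**
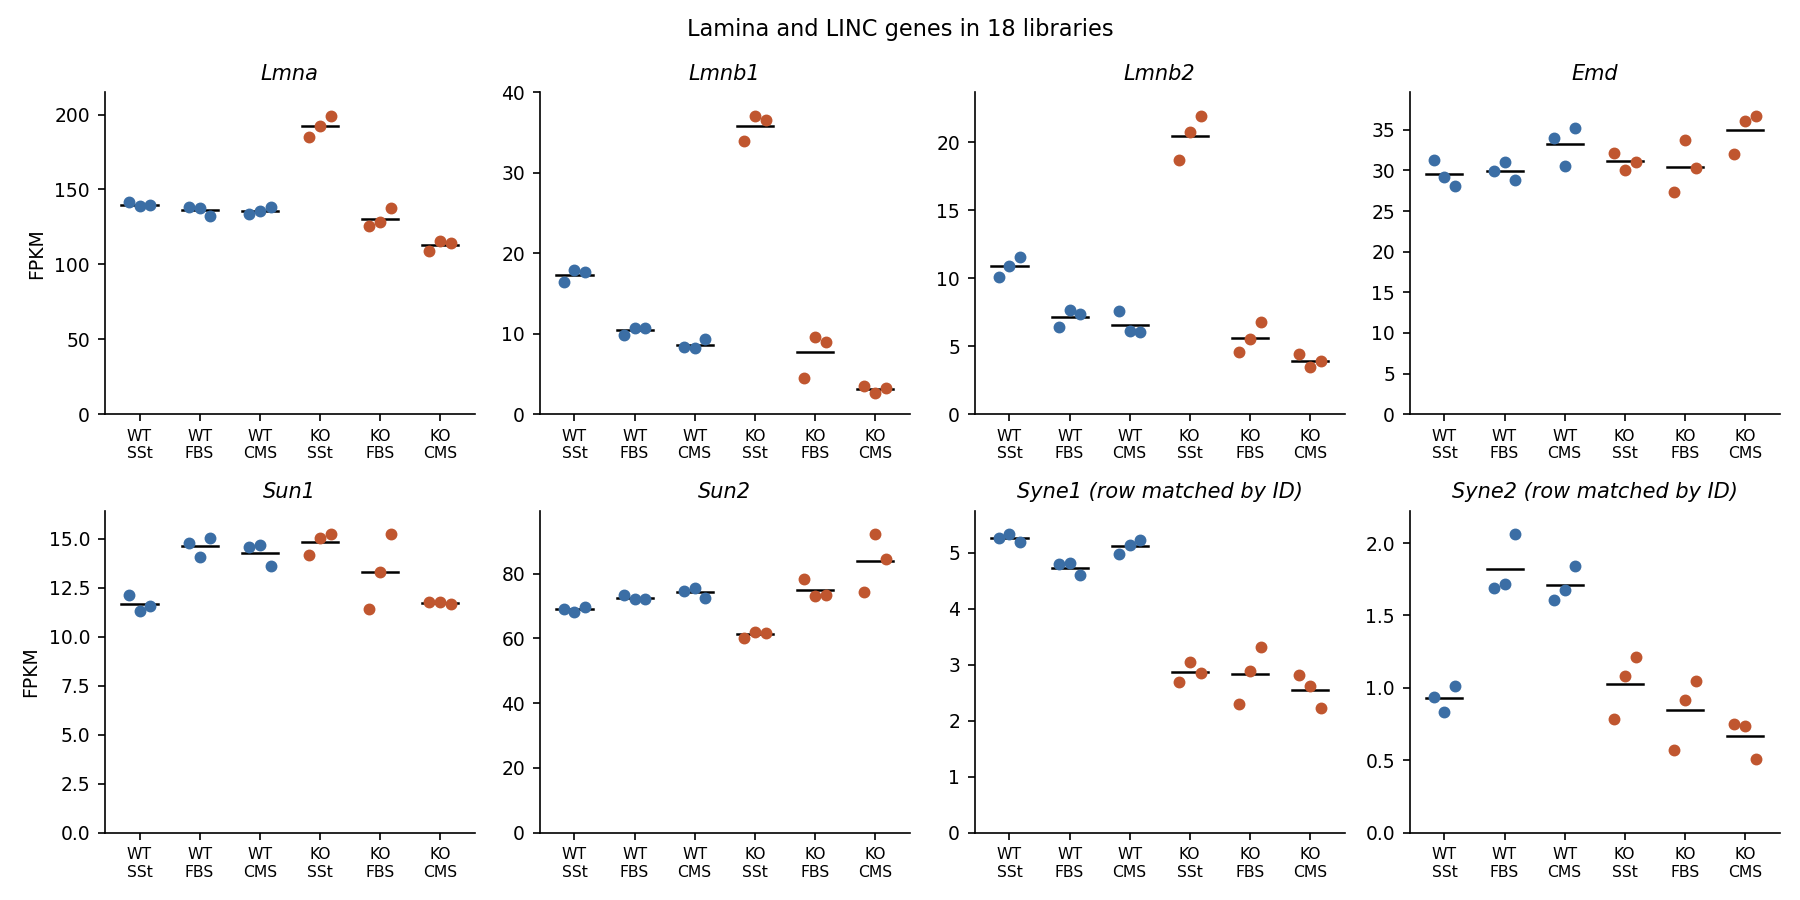
FPKM of the 6 members and the 2 nesprin rows in each of the 18 libraries (points; blue WT, orange KO), with the group mean as a line and each vertical axis from 0. The B-type lamins Lmnb1 and Lmnb2 reach 35.9 and 20.5 FPKM on average in KO SSt and 3.14 and 3.94 in KO CMS, while Emd stays between 27.3 and 36.7 FPKM in every library.

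The first question was how serum or stretch, set against continued starvation, went with lamin transcripts in WT cells. Both B-type lamins were lower with FBS and with CMS, Lmna differed by a few percent, and Sun1 was higher. Of the 6 members, 4 passed an adjusted p of 0.05 between FBS and SSt, 1 higher and 3 lower, where 66.4% of all 12916 tested genes passed, 33.7% higher and 32.7% lower. Between CMS and SSt 5 passed, 2 higher and 3 lower, beside 66.8% of all tested genes, 34.6% higher and 32.3% lower. These counts are near the background, so the sizes and directions of the single genes carry the description. The median log2 fold change was -0.05 (FBS) and 0.01 (CMS) for the members and 0.01 and 0.02 for all tested genes. In these bulk libraries fewer cells of a type and less RNA per cell cannot be told apart.

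Lmnb1 encodes lamin B1, a lamin that stays farnesylated and membrane bound. It measured 16.5, 17.9 and 17.7 FPKM in WT SSt, 9.84, 10.8 and 10.8 in WT FBS, and 8.41, 8.24 and 9.29 in WT CMS. No library of either treated group reached the SSt libraries, and the CMS libraries lay below the FBS libraries. By edgeR's quasi-likelihood test the log2 fold change was -0.77 with FBS (SE 0.064, adjusted p = 2.63e-06) and -1.03 with CMS (SE 0.064, adjusted p = 3e-07). Lmnb2, the gene of lamin B2, measured 10.1, 10.9 and 11.6 FPKM in SSt, 6.38, 7.64 and 7.37 in FBS, and 7.57, 6.15 and 6.03 in CMS. It too was lower in every treated library than in any SSt library, by a log2 fold change of -0.64 with FBS (SE 0.10, adjusted p = 0.000345) and -0.75 with CMS (SE 0.10, adjusted p = 0.000123). Both genes kept these calls under every alternative run for the 2 comparisons.

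The regions upstream of both B-type lamin genes are shown because these genes moved together in all 4 comparisons with SSt. Each sequence holds 250 bases before and 50 after the RefSeq start, on GRCr8 and the gene's strand. Capitals mark 4 letter patterns that occur in promoters of genes of the cell cycle or growth, picked after the values were seen and searched on both strands. They are the CCAAT box, the cell cycle homology element TTTGAA, the E-box CACGTG and the E2F-type pattern TTCCCGC, and they occur in 37.5%, 18.3%, 6.42% and 4.21% of the 33469 RefSeq promoters of the same length.
Lmnb1: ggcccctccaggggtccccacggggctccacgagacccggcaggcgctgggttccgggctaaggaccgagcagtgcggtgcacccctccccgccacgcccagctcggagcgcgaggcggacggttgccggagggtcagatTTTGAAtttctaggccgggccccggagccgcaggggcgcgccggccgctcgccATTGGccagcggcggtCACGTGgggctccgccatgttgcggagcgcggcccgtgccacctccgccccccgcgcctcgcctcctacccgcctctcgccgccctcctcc
Lmnb2: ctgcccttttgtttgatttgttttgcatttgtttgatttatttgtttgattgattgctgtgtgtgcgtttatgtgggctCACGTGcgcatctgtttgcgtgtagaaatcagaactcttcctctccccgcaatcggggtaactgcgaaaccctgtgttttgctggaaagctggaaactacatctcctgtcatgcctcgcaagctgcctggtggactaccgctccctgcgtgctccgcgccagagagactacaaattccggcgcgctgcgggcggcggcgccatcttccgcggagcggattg

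The Lmnb1 sequence held TTTGAA from -110 to -105, CCAAT on the opposite strand from -57 to -53 and CACGTG from -41 to -36, counted from the start. Lmnb2 held CACGTG from -171 to -166 and none of the other patterns. Among the other rows with a RefSeq promoter, Sun2 held CCAAT from -117 to -113 and from -73 to -69 and TTTGAA on the opposite strand from -127 to -122, Lmna held TTCCCGC on the opposite strand from 7 to 13, and Sun1, Emd and Syne2 held none of the 4 patterns. These matches describe letters only.

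Lmna, which encodes lamins A and C, measured 141, 139 and 139.6 FPKM in WT SSt, 138, 138 and 132 in WT FBS, and 134, 135 and 138 in WT CMS. The SSt libraries stood above the others by a margin close to the spread within a group. Its log2 fold change was -0.07 with FBS (SE 0.026, adjusted p = 0.0288) and -0.07 with CMS (SE 0.026, adjusted p = 0.0404). Scaling to library totals alone ended both calls, with log2 fold changes of -0.04 (adjusted p = 0.248) and -0.04 (adjusted p = 0.177), and the adjusted p over all alternatives ran from 0.0125 to 0.248 with FBS and from 0.0102 to 0.177 with CMS. The FBS call was also lost without WT FBS replicate 3 (-0.05, adjusted p = 0.118), and the CMS call without WT SSt replicate 1 or 3 or WT CMS replicate 1 or 2 (adjusted p from 0.0502 to 0.108).

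Sun1 and Sun2 encode the inner membrane anchors of the LINC complex. Sun1 measured 12.1, 11.3 and 11.6 FPKM in WT SSt, 14.8, 14.1 and 15.0 in FBS, and 14.6, 14.7 and 13.6 in CMS. It was higher in each treated library than in any SSt library, by a log2 fold change of 0.29 with FBS (SE 0.045, adjusted p = 0.000237) and 0.27 with CMS (SE 0.045, adjusted p = 0.000424). Sun2 measured 69.1, 68.0 and 69.6 FPKM in SSt, 73.4, 72.1 and 72.3 in FBS, and 74.7, 75.6 and 72.5 in CMS. By FPKM its treated groups did not overlap with SSt. The log2 fold change was 0.04 with FBS (SE 0.028, adjusted p = 0.24) and 0.08 with CMS (SE 0.028, adjusted p = 0.0243). With FBS 3 of 15 alternatives passed, among them scaling to library totals (0.08, adjusted p = 0.0304), and the adjusted p ran from 0.0269 to 0.688. The CMS call was lost under 8 of 15 alternatives, over which its adjusted p ran from 0.0047 to 0.13. Among these 8 were each removal of a WT SSt library or of WT CMS replicate 1 or 2 (adjusted p from 0.0563 to 0.13). Emd, a LEM domain protein of the inner membrane that binds lamin A, measured 31.3, 29.2 and 28.0 FPKM in SSt, 29.9, 31.0 and 28.9 in FBS, and 33.99, 30.6 and 35.2 in CMS. Its groups overlapped, and with CMS the log2 fold change was 0.15 (SE 0.061, adjusted p = 0.0556). Over all alternatives the adjusted p of Emd ran from 0.0091 to 0.213, and 6 of 15 passed. Among these were scaling to library totals (adjusted p = 0.0294) and leaving out WT SSt replicate 1 (adjusted p = 0.0356) or WT CMS replicate 2 (adjusted p = 0.0091).

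The nesprins went in opposite directions in WT cells. Syne2, the giant nesprin-2, measured 0.941, 0.836 and 1.01 FPKM in SSt, 1.69, 1.72 and 2.06 in FBS, and 1.61, 1.68 and 1.84 in CMS. Every treated library exceeded every SSt library, and the log2 fold change was 0.93 with FBS (SE 0.095, adjusted p = 1.24e-05) and 0.85 with CMS (SE 0.095, adjusted p = 2.36e-05). Syne1, which encodes nesprin-1, measured 5.27, 5.32 and 5.18 FPKM in SSt, 4.79, 4.82 and 4.59 in FBS, and 4.98, 5.14 and 5.22 in CMS. With FBS it was lower in every library (log2 fold change -0.19, SE 0.033, adjusted p = 0.000577), whereas CMS and SSt overlapped (-0.07, SE 0.033, adjusted p = 0.103). In GRCr8 RNA genes that code for no protein overlap Lmnb2, Sun1, Syne1 and Syne2 (4 of 8 rows), and since the strand of the reads is not given in the sources used here, reads from such a gene cannot be told apart from the member's own.

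The same comparisons in KO cells gave larger differences for the lamins. With FBS 4 of the 6 members passed, 1 higher and 3 lower, where 59.8% of all 12888 tested genes passed (30.3% higher, 29.5% lower), and 2 were also at least 2-fold apart, beside 17.1% of all genes. With CMS all 6 passed, 2 higher and 4 lower, beside 61.5% of all genes (30.8% higher, 30.7% lower), and 2 were at least 2-fold apart, beside 19.2%. The members' median log2 fold change was -0.30 with FBS and -0.44 with CMS, and that of all tested genes 0.02 and 0.00. Lmnb1 and Lmnb2 were the members at least 2-fold apart in both comparisons.

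Lmnb1 measured 33.95, 37.1 and 36.6 FPKM in KO SSt, 4.45, 9.57 and 9.04 in KO FBS, and 3.51, 2.69 and 3.22 in KO CMS. The 3 groups did not overlap, and replicate 1 of FBS lay near the CMS libraries. Lmnb1 changed by a log2 fold change of -2.17 with FBS (SE 0.24, adjusted p = 7.43e-05), a 4.50-fold lower level, and -3.40 with CMS (SE 0.25, adjusted p = 5.77e-06), 10.6-fold lower. Without KO FBS replicate 1 the FBS value was -1.90 (SE 0.10, adjusted p = 1.45e-06). Lmnb2 measured 18.7, 20.8 and 21.9 FPKM in SSt, 4.55, 5.50 and 6.81 in FBS, and 4.43, 3.49 and 3.91 in CMS. Its treated libraries were all far below SSt, with log2 fold changes of -1.81 (SE 0.14, adjusted p = 9.97e-06) and -2.26 (SE 0.14, adjusted p = 2.34e-06), and -1.69 (SE 0.13, adjusted p = 1.1e-05) with FBS when replicate 1 was left out.

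Lmna followed the B-type lamins in KO cells at a smaller size. It measured 185, 192 and 199 FPKM in SSt, 126, 128 and 138 in FBS, and 109, 115 and 114 in CMS, and the 3 groups did not overlap. For Lmna this gave a log2 fold change of -0.50 with FBS (SE 0.048, adjusted p = 3.31e-05) and -0.66 with CMS (SE 0.048, adjusted p = 4.97e-06). Leaving out KO FBS replicate 1 gave -0.49 (SE 0.052, adjusted p = 6.61e-05) with FBS.

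Sun2 rose in KO cells. It measured 60.1, 62.0 and 61.7 FPKM in SSt, 78.3, 73.0 and 73.4 in FBS, and 74.5, 92.1 and 84.7 in CMS, with no SSt library reaching a treated one. Its log2 fold change was 0.35 with FBS (SE 0.080, adjusted p = 0.00462) and 0.56 with CMS (SE 0.080, adjusted p = 0.000285), and 0.30 (SE 0.079, adjusted p = 0.0106) with FBS without replicate 1. Sun1 measured 14.2, 15.1 and 15.2 FPKM in SSt, 11.4, 13.3 and 15.2 in FBS, and 11.8, 11.8 and 11.7 in CMS. FBS overlapped with SSt (log2 fold change -0.10, SE 0.083, adjusted p = 0.342). Without KO FBS replicate 1 the value was -0.013 (SE 0.067, adjusted p = 0.881), and without replicate 3 it passed (-0.19, adjusted p = 0.0349). CMS lay below SSt (-0.23, SE 0.083, adjusted p = 0.0411), a call lost without KO SSt replicate 2 or 3 or any 1 KO CMS library (adjusted p from 0.0826 to 0.0897), while over all alternatives the adjusted p ran from 0.00353 to 0.0897.

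Emd measured 32.1, 30.1 and 31.1 FPKM in KO SSt, 27.3, 33.8 and 30.3 in FBS, and 32.1, 36.0 and 36.7 in CMS. SSt and CMS overlapped, and the log2 fold change with CMS was 0.28 (SE 0.081, adjusted p = 0.0145). Scaling to library totals reduced it to 0.17 (adjusted p = 0.118), and over all alternatives the adjusted p ran from 0.00535 to 0.118, with 0.0599 without KO SSt replicate 2 and 0.0545 without KO CMS replicate 3. Of the nesprins, Syne1 measured 2.69, 3.05 and 2.85 FPKM in SSt, 2.30, 2.88 and 3.32 in FBS, and 2.81, 2.63 and 2.22 in CMS, with overlap throughout. Syne2 measured 0.782, 1.09 and 1.21 FPKM in SSt, 0.574, 0.919 and 1.05 in FBS, and 0.750, 0.735 and 0.511 in CMS, and neither FBS (log2 fold change -0.22, SE 0.24, adjusted p = 0.451) nor CMS (-0.52, SE 0.24, adjusted p = 0.0915) passed the test, though CMS did without KO SSt replicate 1 (-0.69, adjusted p = 0.043). The FBS value of Syne2 without KO FBS replicate 1 was -0.021 (SE 0.21, adjusted p = 0.938). In KO, Syne2 reached an FPKM of 1 only in SSt replicates 2 and 3 and FBS replicate 3, the fewest libraries the filter allows. Some alternatives therefore did not test it in KO against SSt, and 11 did.

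**Figure D2:**
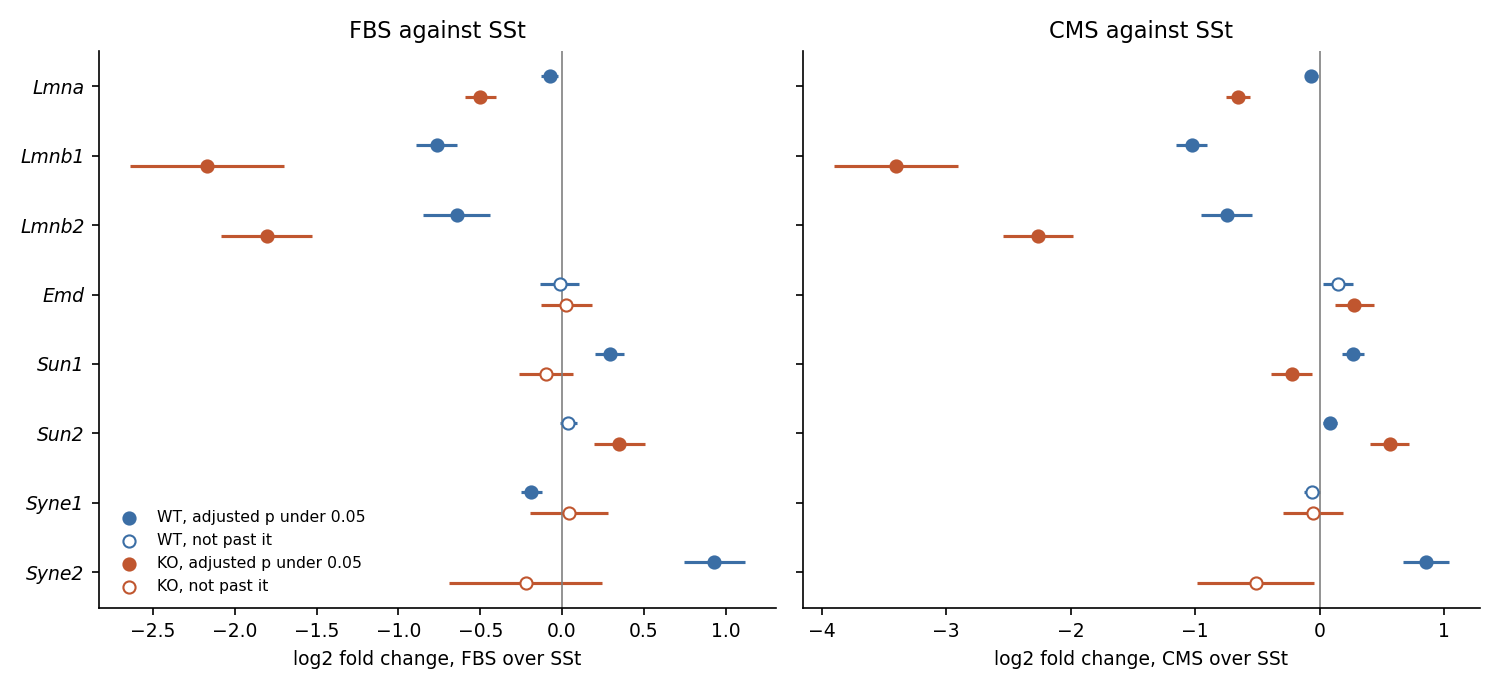
Log2 fold change over SSt of each member and nesprin row with FBS (left) and CMS (right) in WT (blue) and KO (orange), with lines for 1.96 SE to each side. Filled points passed an adjusted p of 0.05. Lmnb1 lies at -0.77 and -1.03 in WT and at -2.17 and -3.40 in KO.

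Stretch was also set against serum directly. In WT cells 1 of 6 members passed, Lmnb1, lower with CMS by a log2 fold change of -0.26 (SE 0.064, adjusted p = 0.0349), where 8.94% of all genes passed, 3.91% higher and 5.03% lower. Leaving out 1 of 4 of the 6 libraries in turn (WT FBS replicate 2 or 3, WT CMS replicate 1 or 2) ended the call, and over all alternatives the adjusted p ran from 0.00491 to 0.106. In KO cells 1 of 6 passed beside 14.8% of all genes (6.73% higher, 8.09% lower), again Lmnb1, lower with CMS by -1.23 (SE 0.24, adjusted p = 0.0119). Without KO CMS replicate 2 that adjusted p was 0.0519 (log2 fold change -1.13). With all libraries Lmna (-0.16, adjusted p = 0.0597), Lmnb2 (-0.46, adjusted p = 0.0606), Sun1 (-0.13, adjusted p = 0.351), Sun2 (0.21, adjusted p = 0.113) and Emd (0.25, adjusted p = 0.0708) did not pass. Of 15 alternatives, 6 passed for Lmna, 3 for Lmnb2, 1 for Sun1, 2 for Sun2 and 3 for Emd. Without KO FBS replicate 1, which stood apart, 5 members passed, beside 24.5% of all genes. Lmnb1 (-1.50, adjusted p = 4.49e-05), Lmnb2 (-0.57, adjusted p = 0.0123), Lmna (-0.17, adjusted p = 0.047) and Sun1 (-0.21, adjusted p = 0.0492) were lower with CMS and Sun2 was higher (0.26, adjusted p = 0.0429). Emd passed without KO FBS replicate 2 (0.32, adjusted p = 0.048), and Sun2 (0.29, adjusted p = 0.0243) and Emd (0.32, adjusted p = 0.0353) passed without KO CMS replicate 1. For Syne1 the WT difference between CMS and FBS was 0.12 (SE 0.033, adjusted p = 0.0495), past the threshold under 3 of 15 alternatives and lost without any 1 WT FBS library or WT CMS replicate 2 or 3 (adjusted p from 0.0802 to 0.148).

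Between genotypes, the SSt libraries differed in the lamins and both SUN genes. Of the 6 members, 5 passed, 4 higher and 1 lower in KO, where 47.4% of 13317 tested genes passed, 24.2% higher and 23.2% lower. From the levels given above, no KO SSt library overlapped a WT SSt library for these 5 genes. The share of all genes without overlap is not given, so this separation is not read as particular to the members. The log2 fold change of KO over WT was 0.97 for Lmnb1 (SE 0.18, adjusted p = 0.000466), 0.84 for Lmnb2 (SE 0.13, adjusted p = 8.88e-05), 0.38 for Lmna (SE 0.037, adjusted p = 1.1e-06), 0.27 for Sun1 (SE 0.068, adjusted p = 0.00419) and -0.24 for Sun2 (SE 0.061, adjusted p = 0.0041). Emd overlapped between the genotypes. The members' median was 0.33, beside 0.02 for all tested genes.

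With FBS 0 of 6 members passed edgeR's test between genotypes, beside 25.7% of all genes (13.5% higher, 12.3% lower). At an unadjusted p under 0.05 the count was 2. The 25.7% of all genes past the adjusted p also lie under that looser threshold, and the full share of all genes is not given. DESeq2 and limma also gave 0 members past the adjusted p. The log2 fold change was -0.42 for Lmnb1 (SE 0.18, adjusted p = 0.112, interval of 1.96 SE from -0.78 to -0.06) and -0.31 for Lmnb2 (SE 0.13, adjusted p = 0.0957, interval from -0.57 to -0.06). Without KO FBS replicate 1 they were -0.16 (adjusted p = 0.258) and -0.20 (adjusted p = 0.323). Lmnb1 passed when replicate 2 was left out instead (-0.60, adjusted p = 0.0366), and Lmnb2 (-0.46, adjusted p = 0.0142) passed without replicate 3. Sun1 was at -0.10 with all libraries (SE 0.068, adjusted p = 0.293). It passed without replicate 3 (-0.20, adjusted p = 0.014) and was at -0.02 (adjusted p = 0.841) without replicate 1. Sun2 was at 0.08 with all libraries (SE 0.061, adjusted p = 0.381) and at 0.02 (adjusted p = 0.839) without replicate 1.

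With CMS the lamins stood the other way round from SSt. Of the 6 members 5 passed, 1 higher and 4 lower in KO, beside 39.7% of all genes, 18.7% higher and 21% lower. The log2 fold change of KO over WT was -1.39 for Lmnb1 (SE 0.19, adjusted p = 3.95e-05), -0.67 for Lmnb2 (SE 0.13, adjusted p = 0.000848), -0.20 for Lmna (SE 0.037, adjusted p = 0.000582) and -0.22 for Sun1 (SE 0.068, adjusted p = 0.0193), and 0.24 for Sun2 (SE 0.061, adjusted p = 0.00557). KO and WT libraries overlapped for Sun2 and for none of the other 4, and here too the share of all genes without overlap is not given. Emd was at 34.9 FPKM in KO and 33.2 in WT, with overlap. Its log2 fold change was 0.14 (SE 0.072, adjusted p = 0.146), and it passed without KO CMS replicate 1 (0.20, adjusted p = 0.0405). The Sun1 call was lost without WT CMS replicate 1 (adjusted p = 0.0593), WT CMS replicate 2 (adjusted p = 0.068) or KO CMS replicate 3 (adjusted p = 0.0522).

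Among the nesprins, Syne1 was lower in KO under all 3 treatments. Its log2 fold change was -0.95 in SSt (SE 0.095, adjusted p = 1.48e-06), -0.71 in FBS (SE 0.095, adjusted p = 6.8e-05) and -0.94 in CMS (SE 0.095, adjusted p = 2.99e-06), and the highest of the 9 KO libraries (3.32 FPKM) lay below the lowest of the 9 WT libraries (4.59 FPKM). Syne2 overlapped between the genotypes in SSt and was lower in KO with FBS (-1.07, SE 0.20, adjusted p = 0.000981) and with CMS (-1.29, SE 0.20, adjusted p = 0.000116). Without KO FBS replicate 1 the FBS values were -0.60 for Syne1 (adjusted p = 8.66e-05) and -0.87 for Syne2 (adjusted p = 0.00264).

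Whether the response to treatment differed between genotypes was tested as an interaction in all 18 libraries. For FBS 5 of 6 members passed, 1 higher and 4 lower in KO minus WT, where 35.7% of all genes passed (18.5% higher, 17.2% lower), and for CMS 5 of 6, 1 higher and 4 lower, beside 44.8% (21.6% higher, 23.2% lower). The difference in log2 fold change was largest for Lmnb1, -1.39 with FBS (SE 0.26, adjusted p = 0.000748) and -2.37 with CMS (SE 0.26, adjusted p = 5.72e-06). For Lmnb2 it was -1.15 (SE 0.18, adjusted p = 0.000231) and -1.51 (SE 0.18, adjusted p = 1.26e-05), and for Lmna -0.41 (SE 0.053, adjusted p = 3.91e-05) and -0.58 (SE 0.053, adjusted p = 1.06e-06). Sun1 and Sun2 differed in opposite directions: Sun1 by -0.38 (SE 0.096, adjusted p = 0.00691) and -0.49 (SE 0.096, adjusted p = 0.000748), Sun2 by 0.32 (SE 0.086, adjusted p = 0.00873) and 0.48 (SE 0.086, adjusted p = 0.000329). Emd did not pass, with 0.14 for CMS (SE 0.10, adjusted p = 0.302). Both interactions share the SSt libraries, so the FBS and CMS values are not independent of each other.

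The nesprins parted in the interaction as well. Syne2, higher with FBS and CMS in WT, differed by -1.14 with FBS (SE 0.28, adjusted p = 0.00484) and -1.36 with CMS (SE 0.28, adjusted p = 0.000967). For Syne1 the FBS difference was 0.24 (SE 0.13, adjusted p = 0.178), and without KO FBS replicate 1 it was 0.35 (SE 0.11, adjusted p = 0.0197). Leaving out that library left the FBS calls of the 5 members in place, with -1.13 for Lmnb1 (adjusted p = 6.36e-06), -1.04 for Lmnb2 (adjusted p = 0.000321), -0.41 for Lmna (adjusted p = 5.16e-05), -0.29 for Sun1 (adjusted p = 0.00916) and 0.27 for Sun2 (adjusted p = 0.0219), and gave -0.94 for Syne2 (adjusted p = 0.007).

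**Figure D3:**
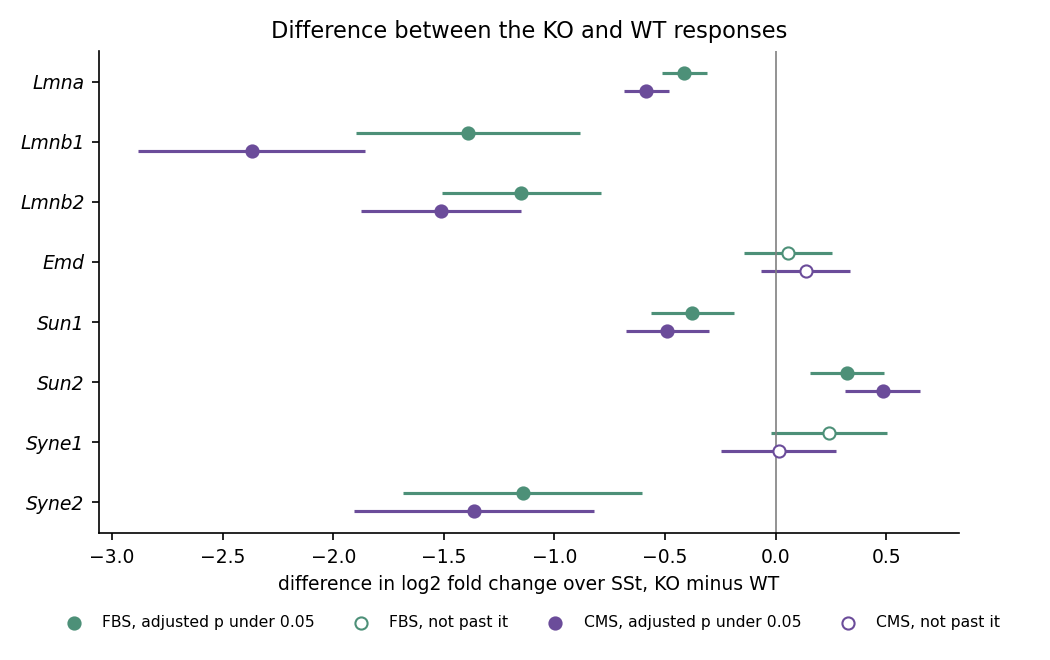
Difference between the KO and WT log2 fold changes over SSt for FBS (green) and CMS (purple), with lines for 1.96 SE to each side; filled points passed an adjusted p of 0.05. Values below 0 are lower in KO, and Lmnb1 with CMS lies lowest at -2.37 while Sun2 lies at 0.32 and 0.48.

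Set against each other within a library, the lamin transcripts changed their proportions. B-type lamins made up 16.8 ± 0.84% of the summed lamin FPKM in WT SSt (SD, n = 3), 11.4 ± 0.84% in WT FBS and 10.1 ± 0.53% in WT CMS. In KO the share was 22.7 ± 0.50% in SSt and 5.91 ± 0.85% in CMS, and in FBS it was 6.69% in replicate 1 and 10.5% and 10.3% in the others. The ratio of Lmna to Lmnb1 was 8.08 ± 0.45 in WT SSt, 13.1 ± 0.92 in WT FBS and 15.7 ± 0.80 in WT CMS, and 5.36 ± 0.15 in KO SSt and 36.5 ± 5.9 in KO CMS. In KO FBS it was 28.2, 13.4 and 15.2. The ratio of Lmnb1 to Lmnb2 was 1.60 ± 0.059 in WT SSt and 1.76 ± 0.079 in KO SSt, and 0.797 ± 0.026 in KO CMS, the group in which lamin B2 transcripts outnumbered those of lamin B1 in every library. These ratios are descriptions of the levels already tested.

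Sun2 transcripts outnumbered Sun1 transcripts in every group. The ratio was 5.91 ± 0.18 in WT SSt, 4.97 ± 0.16 in WT FBS and 5.20 ± 0.11 in WT CMS, and 4.13 ± 0.093 in KO SSt and 7.13 ± 0.76 in KO CMS, with 6.87, 5.48 and 4.82 in KO FBS. Summed over the 3 genes, lamin FPKM was 168 to 169 in the WT SSt libraries, 151 to 156 in WT FBS and 149.7 to 153 in WT CMS. In KO it was 238 to 258 in SSt, 135 to 153 in FBS and 117 to 122 in CMS.

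Division genes moved with the B-type lamins. Of the 12 division genes (Mki67, Top2a, Cdk1, Ccnb1, Ccna2, Mcm2, Mcm3, Mcm5, Mcm6, Pcna, Tyms and Rrm2), 11 fell in WT with FBS and 11 with CMS, and all 12 fell in KO with each, where 32.7% and 32.3% of all tested genes fell in WT and 29.5% and 30.7% in KO. None passed as higher, though Tyms in WT was at 0.14 with FBS (adjusted p = 0.118) and 0.07 with CMS (adjusted p = 0.405). The falls in WT were uneven, from -0.17 (Pcna) to -1.43 (Ccnb1) with FBS and from -0.20 (Mki67) to -1.55 (Mcm6) with CMS. The median log2 fold change of the 12 genes was -0.996 and -1.15 in WT and -1.97 and -3.11 in KO, beside -0.77, -1.03, -2.17 and -3.40 for Lmnb1. In KO FBS replicate 1 both the division sum (124 FPKM) and Lmnb1 (4.45 FPKM) were close to KO CMS, and in replicates 2 and 3 both were near WT FBS (237 and 230.1 FPKM for the sum). Without that replicate all 12 still fell in KO with FBS, by a median of -1.74. The part of cell division in the lamin differences was not tested.

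**Figure D4:**
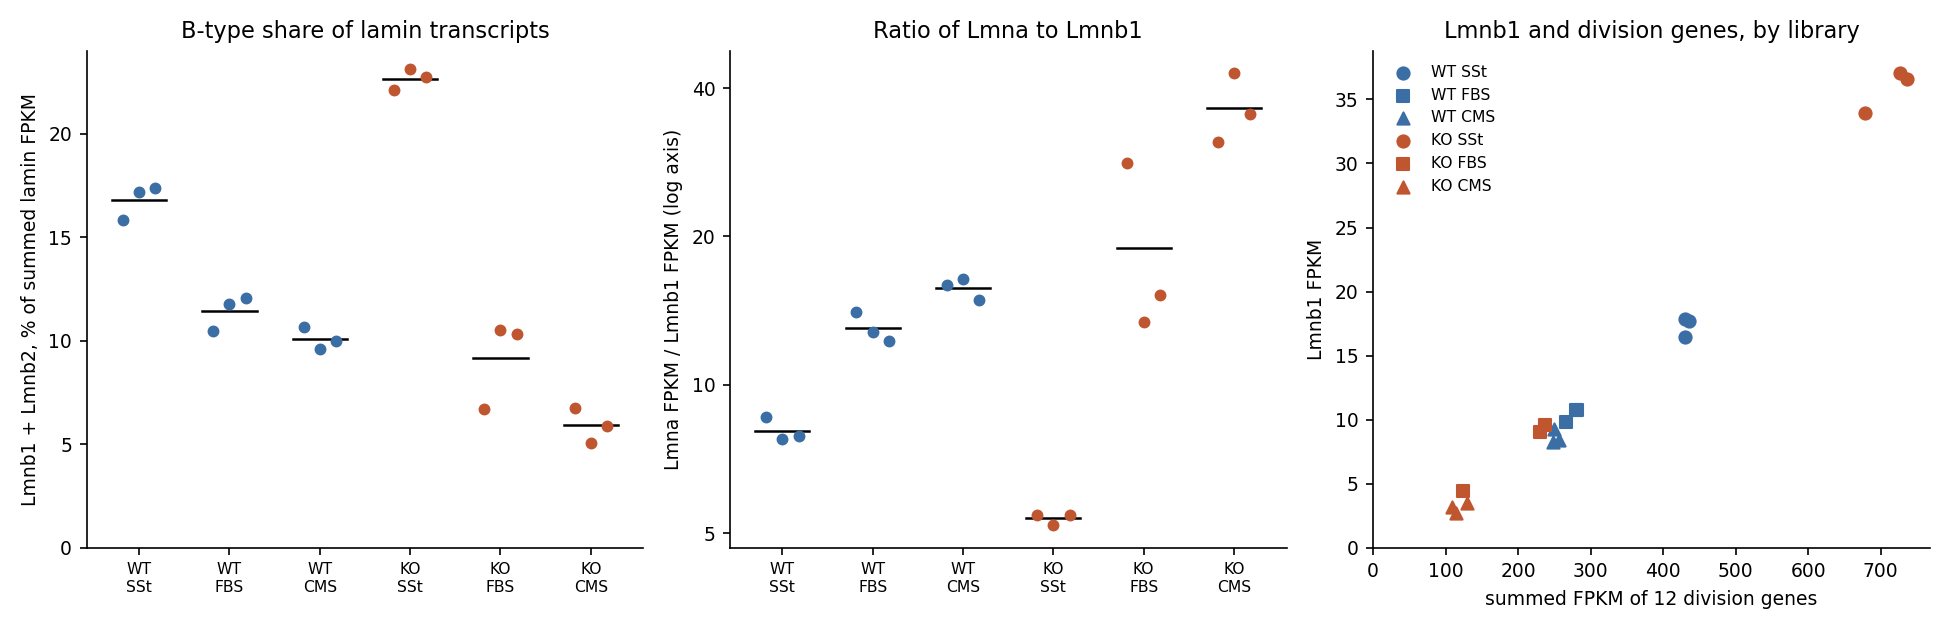
Left, Lmnb1 plus Lmnb2 as a percent of summed lamin FPKM per library; middle, Lmna FPKM over Lmnb1 FPKM on a log axis; right, Lmnb1 FPKM against the summed FPKM of 12 division genes, with a point per library (blue WT, orange KO) and lines at group means in the first 2 panels. The B-type share falls from 22.7% in KO SSt to 5.91% in KO CMS, and the 18 points on the right run from about 108 FPKM of division genes to 736.

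Blood and stromal markers were counted as well. Of all tested genes, 33.7% rose and 32.7% fell in WT with FBS, and 30.3% rose and 29.5% fell in KO. With CMS 34.6% rose and 32.3% fell in WT, and 30.8% rose and 30.7% fell in KO. Of 12 blood and macrophage genes 10 were tested. With FBS 6 rose and 2 fell in WT and 7 rose and 2 fell in KO, and with CMS 5 rose and 3 fell in WT and 5 rose and 4 fell in KO. Without KO FBS replicate 1, where 29.8% of all genes were higher and 29.2% lower in KO with FBS, there were 8 higher and 2 lower blood genes. Their summed level was 3540 to 3690 FPKM in WT SSt, 6163 to 6510 in WT FBS and 5917 to 6243 in WT CMS, and 2153 to 2261, 3958 to 4884 and 3987 to 4309 in the KO groups. Of 12 stromal genes 11 were tested, of which 6 rose and 5 fell in WT with FBS and 3 rose and 3 fell in KO with FBS. With CMS 5 rose and 5 fell in WT and 2 rose and 4 fell in KO. Their sum was 4509 to 4593 FPKM in WT SSt and 6691 to 7029 in KO SSt, beside the genotype differences in SSt, and 5675 to 7635 FPKM in the other 4 groups. The 3 endothelial genes with a row (Cdh5, Tek and Vwf) summed to 0.585 to 2.19 FPKM. The part of these cells in the lamin and LINC differences was not tested.

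The genes whose pattern over the 18 libraries was most like that of a member were ranked by Pearson's r of log2(FPKM + 1) among 9002 genes, as a description over libraries that share 6 groups. For Lmnb1 they were Kif23, a kinesin of cytokinesis (r = 0.995), Fanci of the Fanconi DNA repair pathway (0.995) and the cyclin Ccna2 (0.994). For Lmnb2 they were the RNA-binding protein genes Hnrnpa1 (0.989) and Hnrnpu (0.986) and the tubulin gene Tubb5 (0.988). For Lmna the list gave Smpd4 (0.979), a sphingomyelinase gene, Pithd1 (0.970) and Nfyb (0.969), a subunit of the factor that binds CCAAT. The list for Syne1 held Cdh13 (0.969) and LOC100360791 (0.967), and Syne2 was closest to Chd8 (0.954), Rasa3 (0.948) and Igfbp4 (0.947).

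A wider list of 34 nuclear envelope names, the members left out, gave the background of the compartment. Of these names 31 had 32 rows between them, and 28 rows were tested. Between FBS and SSt 19 passed in WT (5 higher, 14 lower) and 19 in KO (5 higher, 14 lower), and between CMS and SSt 20 in WT (7 higher, 13 lower) and 18 in KO (6 higher, 12 lower). In both directions together these counts are near the 66.4%, 59.8%, 66.8% and 61.5% of all genes in the same order, but more rows were lower than higher, whereas all genes divided about evenly, with 32.7%, 29.5%, 32.3% and 30.7% lower. The list's median log2 fold change was -0.10 and -0.23 with FBS in WT and KO, and -0.05 and -0.16 with CMS. Between genotypes 11 of 28 passed in SSt (8 higher in KO), 3 in FBS (1 higher; 5 with 2 higher without KO FBS replicate 1) and 14 in CMS (8 higher), beside 47.4%, 25.7% and 39.7% of all genes, with 24.2%, 13.5% and 18.7% higher.

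By role, Nup153, Tpr and Nup50 encode the nuclear basket, on the nucleoplasmic face of the pore. These genes were lower in all 4 comparisons with SSt, 3 of 3 each time, with medians between -0.30 and -0.31. Of all tested genes 32.7% were lower in WT FBS, 32.3% in WT CMS, 29.5% in KO FBS and 30.7% in KO CMS. In the same order 33.7%, 34.6%, 30.3% and 30.8% were higher. These shares also stand beside the counts that follow. The 5 genes that farnesylate and trim lamins (Fnta, Fntb, Rce1, Icmt and Zmpste24) mostly did not pass, with 1, 1, 2 and 0 of 5 lower in WT FBS, WT CMS, KO FBS and KO CMS and none higher. Of 11 rows for other LEM and inner membrane proteins, 9 passed in each comparison with SSt, 2 higher and 7 lower in WT and 3 higher and 6 lower in KO. Of the 4 tethers of chromatin (Banf1, Cbx5, Cbx1 and Cbx3), 3, 2, 3 and 3 were lower.

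Lpin1, the gene of lipin-1, a phosphatidic acid phosphatase with a known role in the lipids of the nuclear membrane, had the largest difference of the list in all 4 comparisons with SSt. It was at 2.52 to 2.64 FPKM in the WT SSt libraries, 10.5 to 11.2 in FBS and 9.51 to 10.5 in CMS. In KO it was at 1.78 to 2.00, 6.11 to 8.54 and 6.30 to 7.95 FPKM, and the treated libraries lay above SSt in both genotypes. The log2 fold change was 2.04 and 1.95 in WT (adjusted p = 1.02e-09 and 1.2e-09) and 2.01 and 2.03 in KO (adjusted p = 3.11e-06 and 2.28e-06). It was lower in KO than in WT under all 3 treatments, by a log2 fold change of -0.51 in SSt (SE 0.099, adjusted p = 0.000678), -0.53 in FBS (SE 0.096, adjusted p = 0.000925) and -0.42 in CMS (SE 0.096, adjusted p = 0.00254).

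Tmem43, the gene of an inner membrane protein that binds emerin and lamins, rose in WT from 29.8 to 31.0 FPKM in SSt to 52.8 to 57.3 in FBS and 53.5 to 56.4 in CMS. Its log2 fold change there was 0.80 (SE 0.041, adjusted p = 7.19e-08) and 0.83 (SE 0.041, adjusted p = 5.23e-08). Tmem43 rose in KO as well, by 0.40 with FBS (SE 0.076, adjusted p = 0.00177) and 0.54 with CMS (SE 0.076, adjusted p = 0.000268). Syne3, nesprin-3, which binds plectin, stood at 6.68 to 6.89 FPKM in WT SSt and 11.6 to 12.5 in FBS, and at 6.91 to 8.53 and 6.77 to 8.93 in KO. It was lower in KO than in WT with FBS (-0.57, SE 0.085, adjusted p = 0.000194) and with CMS (-0.52, SE 0.085, adjusted p = 0.000203). For Syne3 the difference between the FBS responses was -0.71 (SE 0.12, adjusted p = 0.000368), in the direction of that of Syne2.

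Tmpo encodes the LAP2 proteins, which tie lamins to chromatin. In WT it was at 21.6 to 22.4 FPKM in SSt, 16.7 to 18.2 in FBS and 17.4 to 19.6 in CMS, and in KO at 32.5 to 35.9, 13.01 to 18.9 and 9.41 to 10.4 FPKM. KO SSt lay above and KO CMS below every WT library. The log2 fold change with CMS in KO was -1.71 (SE 0.12, adjusted p = 3.36e-06), and KO over WT was 0.56 in SSt (SE 0.092, adjusted p = 0.000152) and -0.87 in CMS (SE 0.093, adjusted p = 4.78e-06).

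Cbx5 and Cbx3 encode heterochromatin proteins, a family that binds the lamin B receptor. Cbx5 was at 19.7 to 20.4 FPKM in KO SSt, 5.77 to 8.71 in FBS and 5.58 to 6.95 in CMS, with a log2 fold change of -1.33 with FBS (SE 0.14, adjusted p = 6.71e-05). In WT it was lower as well, by -0.71 with FBS (SE 0.11, adjusted p = 0.000195) and -0.62 with CMS (SE 0.11, adjusted p = 0.000471). KO over WT was 0.44 in SSt (SE 0.13, adjusted p = 0.0126) and -0.53 in CMS (SE 0.13, adjusted p = 0.00516). Cbx3 was at 66.8 to 67.1 FPKM in KO SSt and at 20.1, 39.0 and 22.2 in WT SSt, where replicate 2 stood well above the others. Its log2 fold change of KO over WT in SSt was 1.23 (SE 0.29, adjusted p = 0.00294), and in CMS it did not pass (-0.47, SE 0.29, adjusted p = 0.219). For Lpin1, Tmem43, Syne3 and Cbx5 the KO FBS values named here kept their direction and their calls when KO FBS replicate 1 was left out.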

How the data were processed

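Total RNA of 18 samples was sequenced. The authors deposited a table per genotype that holds, for each gene and library, the count of reads, deposited raw as whole numbers, and the FPKM, the same count scaled by the authors to transcript length and library size (0.0001 stands for no read). Bowtie 0.12.2 and mm10 appear in the submitters' processing notes. As mm10 is a build of the mouse and the tables use Ensembl identifiers of the rat, positions in the tables are not printed. Strandedness and counting tool: not given in the sources used here. The labels give 24 h of treatment and the study's methods a shorter time, a difference that was not resolved.

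Counts were tested with edgeR 4.0.16 (R 4.3.3), TMM scaling and the quasi-likelihood F test, on genes that reached an FPKM of 1 in 3 or more libraries of the fit, with Benjamini-Hochberg adjustment over all tested genes. The 3 groups of a genotype were fitted together, and all 18 libraries for comparisons between genotypes and for interactions. Standard errors come from the F statistic. The threshold was an adjusted p of 0.05. Depth was 56.1 to 71.9 M counts per library, and the lowest count of a member in any library was 348 (Lmnb1). The scripts were tested on simulated counts. Alternatives were RLE factors, library totals, DESeq2 1.42.0, limma 3.58.1 on log2(FPKM + 1) and log2(FPKM + 0.1), no filter, an FPKM minimum of 5, the replicate number as a block, only the groups compared, and each library left out in turn.

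All members are named. From the wider list, the 2 genes with the largest difference among those past the adjusted p with a mean FPKM of at least 5 are named for each of 7 comparisons. For members whose highest group mean is at least 1.5 times the lowest, the 3 genes with the highest r are named, except 1 gene that is not reported here. The members and lists were chosen with earlier results of these data known. Differences with an adjusted p of 0.5 or more are given as levels only. Sequences are from RefSeq, where 7 of 8 rows had a promoter.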

Additional observations from a re-analysis of the deposited data

Results flagged for a closer look

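The response to treatment differed between KO and WT in the test of the difference itself for 5 members and Syne2, in both treatments. Of all tested genes, 35.7% passed the same test with FBS and 44.8% with CMS. For FBS against SSt the difference in log2 fold change, KO minus WT, was -0.41 for Lmna, -1.39 for Lmnb1, -1.15 for Lmnb2, -0.38 for Sun1, 0.32 for Sun2 and -1.14 for Syne2. For CMS against SSt it was -0.58 for Lmna, -2.37 for Lmnb1, -1.51 for Lmnb2, -0.49 for Sun1, 0.48 for Sun2 and -1.36 for Syne2. For Lmnb1 all 3 KO libraries of each treated group lay below all KO SSt libraries, and the WT libraries went the same way at a smaller size. Sun1 was higher with CMS in WT (log2 fold change 0.27) and lower in KO (-0.23, adjusted p = 0.0411), where the call held under 10 of 15 alternatives. Syne2 was higher with CMS in WT (0.85), and in KO it did not pass (-0.52, adjusted p = 0.0915). The division genes differed in the same direction as the lamins, with a median difference of -1.27 for FBS and -2.26 for CMS. For all tested genes the medians were -0.01 and -0.05. The part of the division genes was not tested.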

How the results depend on the processing

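Values of some differences that did not pass are not given above. Of the 88 single-gene differences, 73 had an adjusted p under 0.5. Over their 1162 recomputed values 1071 kept direction and side of the threshold, 55 lost the threshold, 33 gained it and 3 changed sign, all for Emd in the CMS response of KO minus WT (-0.0065 with library totals, -0.0044 and -0.0048 with limma at pseudocounts of 1 and 0.1). The other 15 differences never passed, and 13 changed sign under some alternative. Lmnb1 and Lmnb2 kept their calls in the 4 comparisons with SSt, in KO against WT in SSt and CMS, and in both interactions under every alternative run. The count of members for WT CMS against FBS was 0 in place of 1 without a filter and with only the groups compared. For KO CMS against FBS it was 3 with library totals, 4 with DESeq2, and 2 with an FPKM minimum of 5 and with limma at either pseudocount, in place of 1. The share of all genes under these settings is not given, so these counts are not read as a result about the members. The cause was not tested. Leaving out 1 library at a time gave 3 to 5 members for WT CMS against SSt, 0 to 1 for WT CMS against FBS, 0 to 5 for KO CMS against FBS and 0 to 2 for KO against WT in FBS. In the same order the calls over all genes ran from 7997 to 8387, 580 to 952, 876 to 3147 and 2559 to 3665.

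No pairing by replicate number was visible: deviations of same-numbered libraries correlated from -0.24 to 0.13 in KO, -0.08 to 0.06 in WT and -0.14 to 0.10 between genotypes. Whether same-numbered libraries share an animal or culture cannot be told from these values, and the labels do not state it. With the replicate number as a block 3 members passed for WT FBS against SSt and 4 for WT CMS against SSt, Lmna being lost (adjusted p = 0.0508 and 0.0674), as was Syne1 for WT CMS against FBS (adjusted p = 0.0749); the block changed no other member's call. Over all genes, KO CMS against FBS called 1227 with the block and 883 with only the groups compared in place of 1910, WT CMS against FBS called 1744 with DESeq2 in place of 1155, and KO against WT in FBS called 1551 with only its groups in place of 3429. Leaving out 1 library gave 580 to 952 calls for WT CMS against FBS and 876 to 3147 for KO CMS against FBS.

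Library totals in place of TMM shifted the median of all genes by -0.11 for KO CMS against SSt, -0.11 for the FBS interaction and -0.14 for the CMS interaction. The share of calls that were higher was 39.98% in place of 50.1%, 35.3% in place of 51.8% and 31.4% in place of 48.3% there, 31.0% in place of 45.5% for KO CMS against FBS, 62.6% in place of 51.0% for KO against WT in SSt and 33.3% in place of 47.1% in CMS.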
